A study of Mus musculus with 6 samples.

Results

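Nampt is the enzyme that turns nicotinamide back into nicotinamide mononucleotide, the rate-limiting step of NAD salvage. It is described here with the enzymes that finish NAD (Nmnat1, Nmnat3) or phosphorylate it to NADP (Nadk, Nadk2), and with 5 sirtuins, which consume NAD (Sirt1, Sirt2, Sirt3, Sirt5 and Sirt6). These 10 genes were taken by symbol and are measured by 20 of the 45037 probe sets of the table, each kept apart. A low-signal filter left 18 of the 20, with at least 1 for every gene. The symbols were selected on the hypoxia against normoxia values of these same arrays, those of Nampt first, which were already known. The fold changes and adjusted p-values below therefore describe where each probe set stands in the whole table, and are not independent evidence.

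The cells were HL-1, an established mouse line of atrial tumour origin that keeps cardiomyocyte features. Confluent cultures were held for 8 hours in 1% oxygen (hypoxia) or in 21% oxygen (normoxia), and each condition has 3 samples, each on 1 Affymetrix mouse array. The labels give no other treatment or allele and do not say whether the 3 samples of a group were separate cultures. The p-values therefore reflect sample-to-sample spread that could be purely technical. All are 1 cell line, so nothing here speaks for other cardiomyocytes. The arrays measured bulk RNA, in which fewer cells with a transcript and less transcript per cell cannot be told apart. All values are MAS5 signals, a linear brightness per probe set that has no common scale between probe sets, so no gene is said to be expressed more than another. The brightest probe set of a gene or list only picks which one to name, and sums over markers only compare arrays.

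NAD carries electrons in glycolysis, the TCA cycle and the respiratory chain, and it is also cleaved for its ADP-ribose by sirtuins and PARP enzymes, which release nicotinamide. Heart muscle cells rebuild most of their NAD from that nicotinamide through Nampt and the NMNAT enzymes. Sirtuins are NAD-dependent deacylases. Sirt1 and Sirt6 act mainly in the nucleus, Sirt2 mainly in the cytosol, and Sirt3 and Sirt5 mainly in mitochondria, where Sirt3 removes acetyl groups and Sirt5 succinyl and malonyl groups.

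The 6 arrays had been scaled to a common level, with a trimmed mean signal of 99.5 on each and median signals between 15.0 and 19.0. Of 9 atrial cardiomyocyte markers, 7 lay above the filter, Myl7, Myl4, Tnnt2 and Actc1 among them, while Gja5 and Kcna5 lay below it. Nppa (1308 ± 260 in hypoxia and 791 ± 276 in normoxia) and Sln (93.1 ± 13.7 and 51.9 ± 14.7) had every hypoxia array above every normoxia array without passing (adjusted p = 0.24 and 0.231). Myl4 went the other way, with every hypoxia array below every normoxia array (4763 ± 224 and 5175 ± 200, limma adjusted p = 0.639). The summed signal of the 9 ranged from 25141 to 27392 in hypoxia and from 25991 to 28103 in normoxia. Of the 5 fibroblast, 4 endothelial and 4 macrophage markers, 2, 1 and 3 lay above the filter. Their summed signals were at most 145.9, 123.9 and 123.4 on any array. The macrophage marker Cd68 had 44.0 ± 4.97 in hypoxia and 20.2 ± 4.56 in normoxia without overlap (adjusted p = 0.157), while Ptprc, which marks all leukocytes, lay below the filter, and the summed macrophage signal overlapped between the groups (89.0 to 123.4 and 69.4 to 114.4). Of the 3 smooth muscle markers, the smooth muscle actin Acta2 and Cnn1 lay above it and the lineage-defining myosin Myh11 below, and Cnn1 had 366 ± 82.9 in hypoxia and 257 ± 10.8 in normoxia without overlap (adjusted p = 0.347). The summed smooth muscle signal ranged from 8442.2 to 10897.5 in hypoxia and from 8414.1 to 9881 in normoxia. The part of these markers in the results below was not tested. Across the whole table, 137 of the 22518 probe sets kept by the filter passed an adjusted p of 0.05 (0.608%), 120 of them higher in hypoxia (0.533%) and 17 lower (0.0755%).

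Among the 18 kept probe sets of the 10 genes, 1 passed that threshold, a Nampt probe set that was higher in hypoxia, and 0 passed as lower (limma, adjusted over all probe sets kept). At an unadjusted p under 0.05, 5 were higher and 2 lower, where 10.9% of all kept probe sets had such a p in either direction. The 3 hypoxia arrays all lay above the 3 normoxia arrays in 6 of the 18, against 7.48% of all kept probe sets, and all below in 3, against 9.06%. The 6 are all of Nampt and 3 of the 4 Nadk2 probe sets, and the 3 belong to Nmnat3, Sirt5 and Sirt6. The median log2 fold change of the 18 was 0.08, beside -0.04 over all kept probe sets, and 11 were above 0 and 7 below. All probe sets of Nampt, at the entry of the salvage route, and of Nadk2, the mitochondrial NAD kinase, lay above 0, the lowest at 0.43. This level was read from these values and is not a threshold. The kept probe sets of Nadk and Sirt3 also lay above 0, by 0.12 or less. No Nadk2 probe set passed, and no sirtuin passed in either direction.

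**Figure D1:**
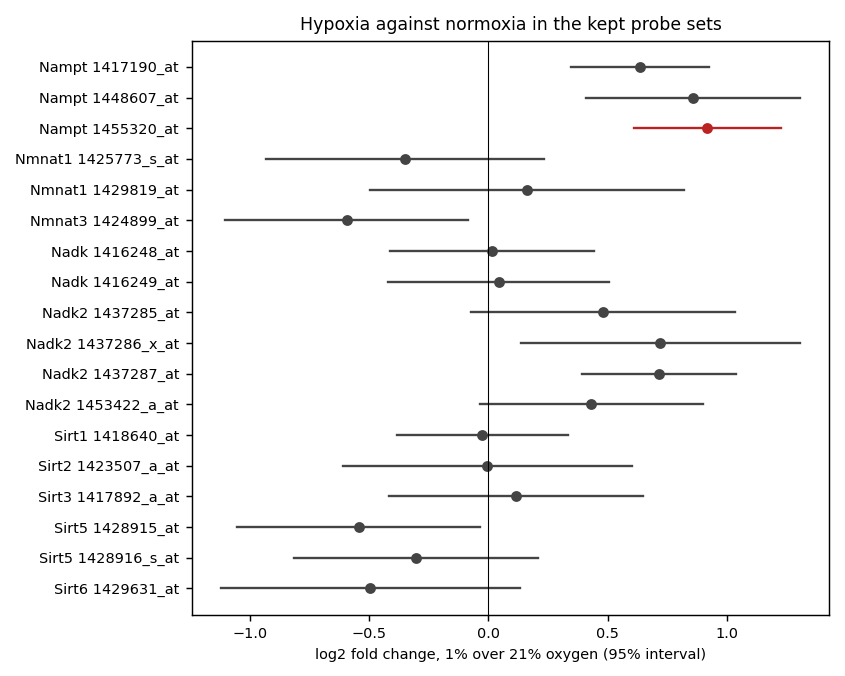
Log2 fold change of hypoxia (1% oxygen) over normoxia (21% oxygen) for the 18 kept probe sets, with the 95% interval of the limma fit; red marks an adjusted p under 0.05. The 3 Nampt probe sets lie between 0.63 and 0.92, the 4 Nadk2 probe sets between 0.43 and 0.72, and the 6 sirtuin probe sets between -0.54 and 0.12.

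The promoters of 3 of these genes are shown first, Nampt as the gene with a call, and Sirt1 and Nadk, with fold changes near 0, for comparison; all were chosen after their values and matches were seen. Hypoxia-inducible factors bind DNA at the core letters ACGTG or GCGTG, and the circadian activators CLOCK and BMAL1, which drive Nampt, bind the E-box CACGTG, which contains ACGTG on both strands. Each line gives the 250 bases before an annotated start in RefSeq on GRCm38.p6, read 5′ to 3′ on the gene's strand, with every ACGTG or GCGTG on either strand in capitals (on the opposite strand they read CACGT and CACGC).
Nampt, chr12:32820085-32820334, plus strand: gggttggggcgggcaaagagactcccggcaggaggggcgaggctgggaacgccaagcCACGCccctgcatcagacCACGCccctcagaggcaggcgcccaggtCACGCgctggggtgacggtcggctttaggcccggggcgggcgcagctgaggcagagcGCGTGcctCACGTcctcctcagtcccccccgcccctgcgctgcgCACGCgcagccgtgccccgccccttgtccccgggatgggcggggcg
Sirt1, chr10:63339036-63339285, minus strand: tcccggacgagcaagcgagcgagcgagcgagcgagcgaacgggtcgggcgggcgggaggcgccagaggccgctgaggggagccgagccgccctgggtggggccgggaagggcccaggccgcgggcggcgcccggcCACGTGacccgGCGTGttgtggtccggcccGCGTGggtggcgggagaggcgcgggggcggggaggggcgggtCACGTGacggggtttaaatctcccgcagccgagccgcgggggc
Nadk, chr4:155563565-155563814, plus strand: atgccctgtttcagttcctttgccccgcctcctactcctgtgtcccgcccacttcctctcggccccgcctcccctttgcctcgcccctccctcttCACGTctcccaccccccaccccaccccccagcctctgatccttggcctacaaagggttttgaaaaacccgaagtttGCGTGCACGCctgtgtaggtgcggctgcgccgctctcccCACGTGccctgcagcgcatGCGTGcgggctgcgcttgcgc

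RefSeq windows were matched by symbol for 9 of the 10 genes, 13 windows in all, and Nadk2 had no entry. The Nampt window holds ACGTG 1 time, its first base 82 bases before the start, and GCGTG 5 times, the nearest of these 46 bases and the farthest 193 bases before the start. It holds no CACGTG. The Sirt1 window holds CACGTG 2 times, 115 and 43 bases before the start, each of which counts as ACGTG on both strands, and GCGTG 2 times. The second of the 2 Nadk windows holds CACGTG 1 time, 40 bases before the start, a further ACGTG at 155 bases and GCGTG 3 times. Of the 32851 windows of the same length in the table, 16.6% hold ACGTG, 28.2% GCGTG and 6.02% CACGTG. These shares were not matched for base content, and the Nampt, Sirt1 and second Nadk windows are 75.6%, 79.2% and 66% G or C. Among the 9 genes, ACGTG stands in a window of 5, namely Nampt, Nadk, Sirt1, Sirt5 and Sirt6, and either core in a window of 7. These counts are per gene over any of its windows, so the shares per window are not a like comparison. A share for either core was not computed. Counted on both strands, with each CACGTG counted 2 times, the Nampt, Sirt1 and second Nadk windows each hold 6 matches of either core. The 6 of Nampt lie at separate places, since its window holds no CACGTG. Every other window of the 9 genes holds fewer matches. These matches describe letters in the windows and do not show that a factor binds there.

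Nampt has 3 probe sets, and on each of them every hypoxia array exceeded every normoxia array. The probe set 1455320_at read 589.4, 474.8 and 563.1 on hypoxia arrays 1, 2 and 3, and 284.1, 289.9 and 284.6 on normoxia arrays 1, 2 and 3. The normoxia arrays were nearly equal, and the lowest hypoxia array stood 0.71 log2 above the highest of them. The means were 542 ± 60.0 and 286 ± 3.21 (SD, n = 3 arrays per condition), and Nampt rose 1.89-fold on this probe set (log2 fold change 0.92, SE 0.14, 95% interval 0.61 to 1.22, adjusted p = 0.0185). It ranked 78th by p among the 22518 probe sets, and 3.76% of them had a larger absolute log2 fold change.

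The probe set 1417190_at of Nampt read 1842.5, 1479.7 and 1410.8 in hypoxia and 960.9, 1081.0 and 992.8 in normoxia. The hypoxia arrays spread more than the normoxia arrays, with replicate 1 well above the other two, and the groups did not overlap. Its log2 fold change was 0.63 (SE 0.13, 95% interval 0.34 to 0.92), a ratio of 1.55, and it did not pass (adjusted p = 0.0748). The probe set 1448607_at of Nampt read 160.2, 111.8 and 146.5 in hypoxia and 68.4, 88.5 and 72.9 in normoxia. Here hypoxia replicate 2 came closest to the normoxia arrays, and its log2 fold change was 0.86 (SE 0.20, 95% interval 0.41 to 1.31, adjusted p = 0.121). The intervals of the 3 Nampt probe sets overlap, and the difference between probe sets was not tested. With the log2 values of all kept probe sets of a gene averaged, an alternative added after the data were seen, Nampt stood at 0.80 log2 (SE 0.14) and passed over 11332 genes (adjusted p = 0.0374).

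The Nampt call was lost in several fits. On 1455320_at it did not hold, among other fits, without hypoxia replicate 1 (adjusted p = 0.142), without normoxia replicate 2 (0.0662) or normoxia replicate 3 (0.115), and without the trend in the variance model (0.118), and it held in 10 of 15 alternatives (range 0.00433 to 0.142). The log2 fold change itself stayed between 0.85 and 1.03 throughout. With array weights all 3 Nampt probe sets passed (adjusted p = 0.00433, 0.0167 and 0.0386).

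**Figure D2:**
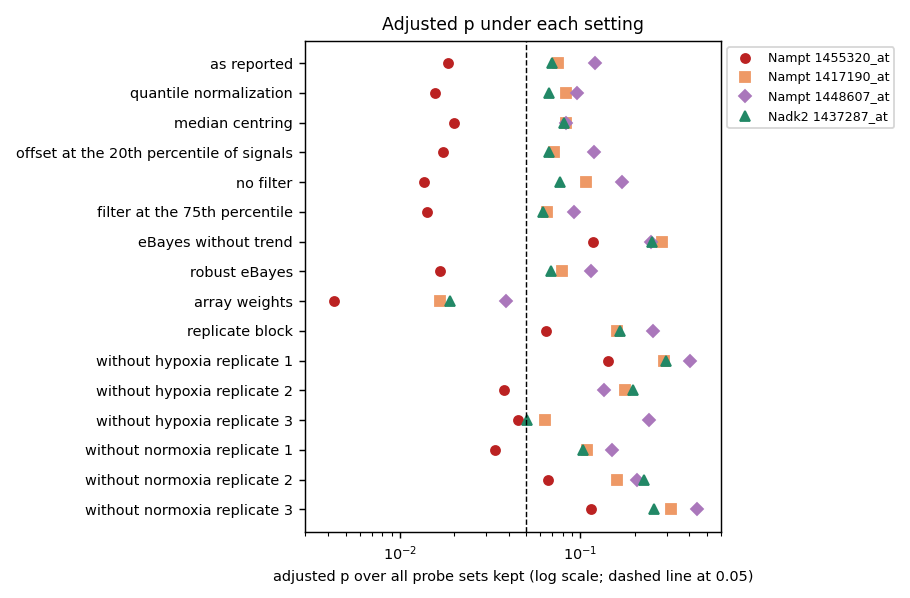
Adjusted p (horizontal axis, log scale, dashed line at 0.05) of the 3 Nampt probe sets and Nadk2 1437287_at in the reported fit and under each of the 15 alternatives. Nampt 1455320_at lies below 0.05 in the reported fit and 10 alternatives, and the other 3 only with array weights.

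**Figure D3:**
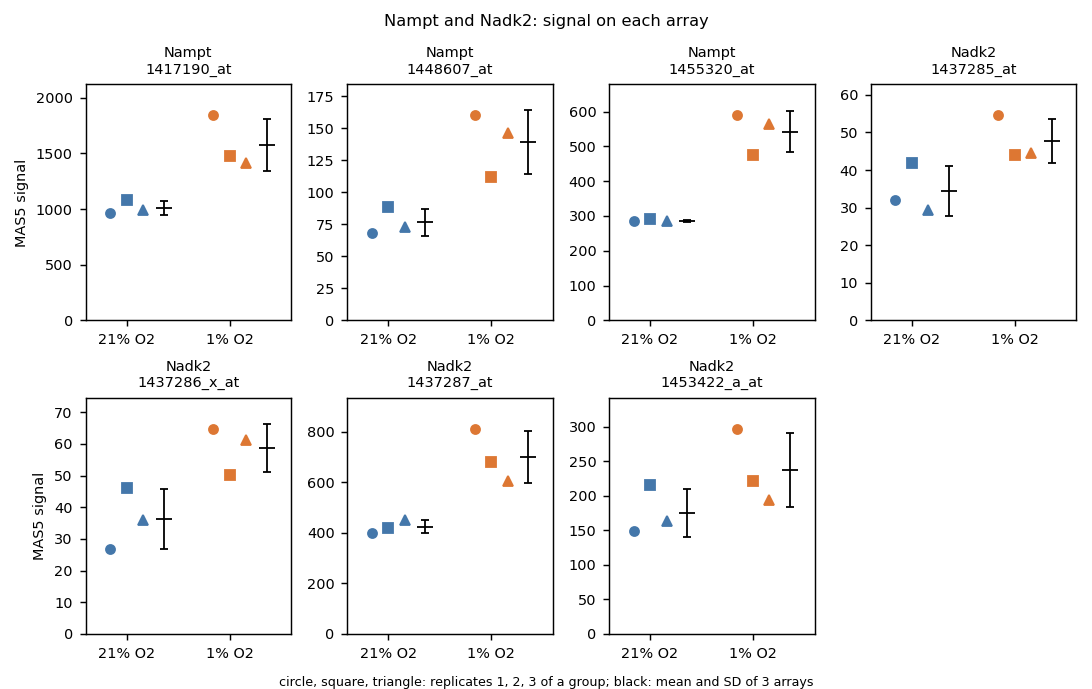
MAS5 signal (vertical axis, linear, from 0) of the 3 Nampt and 4 Nadk2 probe sets on each of the 6 arrays, blue for 21% and orange for 1% oxygen, with the mean and SD of 3 arrays in black. Hypoxia replicate 1 (circle) is the highest array in all 7 panels, and the groups overlap only in Nadk2 1453422_a_at.

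The NMNAT enzymes, which join nicotinamide mononucleotide to ATP to make NAD, had 3 kept probe sets, none of which passed. Nmnat1, the nuclear enzyme, has 2 probe sets with opposite signs. On 1425773_s_at it read 47.0, 41.6 and 49.1 in hypoxia and 74.7, 41.2 and 64.5 in normoxia, so normoxia replicate 2 lay below all hypoxia arrays while the other two lay above them (log2 fold change -0.35, SE 0.26, adjusted p = 0.66; -0.60 without normoxia replicate 2 and -0.17 without normoxia replicate 1). On 1429819_at Nmnat1 read 47.6, 33.1 and 56.1 in hypoxia and 32.5, 53.8 and 36.1 in normoxia, again overlapping (0.16, SE 0.29, 95% interval -0.49 to 0.82, adjusted p = 0.875).

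Nmnat3, the mitochondrial member of the family, read 39.5, 49.6 and 32.8 in hypoxia on 1424899_at and 61.1, 62.6 and 57.8 in normoxia. The normoxia arrays were close together and all above the hypoxia arrays, but the difference did not pass (log2 fold change -0.59, SE 0.23, 95% interval -1.10 to -0.08, adjusted p = 0.384). The second Nmnat3 probe set, 1432342_at, did not pass the filter and read between 0.6 and 12.5 on the 6 arrays, with no order between the groups.

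The 2 NAD kinases, which phosphorylate NAD to NADP, had 6 kept probe sets, none of which passed. Nadk2, the mitochondrial kinase, has 4 probe sets, all above 0. On 1437287_at it read 812.6, 681.0 and 607.6 in hypoxia and 401.4, 420.9 and 451.0 in normoxia. The groups were well apart, with a log2 fold change of 0.71 (SE 0.14, 95% interval 0.39 to 1.03), a ratio of 1.64, and an adjusted p of 0.0698. It passed only with array weights (adjusted p = 0.019), and its adjusted p over the 15 alternatives reached 0.297, without hypoxia replicate 1.

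The Nadk2 probe set 1437286_x_at, whose suffix marks probes that may match other transcripts, read 64.8, 50.3 and 61.3 in hypoxia and 26.9, 46.0 and 36.1 in normoxia (log2 fold change 0.72, SE 0.26, adjusted p = 0.352). On 1437285_at Nadk2 read 54.6, 44.1 and 44.5 in hypoxia and 32.1, 42.0 and 29.3 in normoxia (0.48, SE 0.25, adjusted p = 0.53). In both the groups were apart by a small margin, set by normoxia replicate 2. On 1453422_a_at Nadk2 read 297.2, 221.8 and 194.1 in hypoxia and 148.5, 215.1 and 163.6 in normoxia, where hypoxia replicate 3 lay below normoxia replicate 2 (0.43, SE 0.21, adjusted p = 0.499). The mean of the 4 gave a log2 fold change of 0.59 (adjusted p = 0.199).

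Nadk, the cytosolic kinase, had nearly equal signals in both conditions. On 1416248_at it read 172.9, 211.6 and 166.4 in hypoxia and 143.5, 205.2 and 201.2 in normoxia (log2 fold change 0.01, SE 0.19, adjusted p = 0.986). On 1416249_at Nadk read 119.6, 181.5 and 143.8 in hypoxia and 120.2, 141.2 and 168.4 in normoxia (0.04, SE 0.21, adjusted p = 0.956). Both intervals, from -0.41 to 0.44 and from -0.42 to 0.50, allow ratios from 0.748 to 1.42, so equal expression is not shown.

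Hypoxia replicate 1 gave the highest signal of the 6 arrays in all 7 kept probe sets of Nampt and Nadk2, and normoxia replicate 1 the lowest in 6 of the 7. In the other 11 kept probe sets, hypoxia replicate 1 was the highest in 2 and the lowest in 2. Without hypoxia replicate 1 the log2 fold change of Nampt 1455320_at was 0.85, that of Nampt 1417190_at 0.52 and that of Nadk2 1437287_at 0.60, while that of Nadk2 1453422_a_at dropped to 0.26 from 0.43.

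The 5 sirtuins have 7 probe sets, of which 6 were kept, and their adjusted p-values lay between 0.426 and 0.998. Sirt1, the nuclear deacetylase of many transcription factors, had the smallest spread of the 6 kept sirtuin probe sets (log2 SD of 0.084 in hypoxia and 0.062 in normoxia). It read 118.8, 108.0 and 106.8 in hypoxia and 118.1, 112.8 and 108.4 in normoxia on 1418640_at, and the arrays of both groups cover the same span (111 ± 6.61 against 113 ± 4.86). Its log2 fold change was -0.03 (SE 0.16), and the 95% interval of -0.38 to 0.33 covers ratios from 0.766 to 1.26. The sign turned after quantile normalization (0.026) and after centring each array on its median (0.086).

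Sirt2, the mainly cytosolic enzyme, read 262.8, 223.9 and 125.4 in hypoxia and 164.4, 189.8 and 238.6 in normoxia on 1423507_a_at. Hypoxia replicate 3 was the lowest and hypoxia replicate 1 the highest array of all 6, so the spread within hypoxia exceeded any difference between the groups (log2 fold change -0.0043, SE 0.27, adjusted p = 0.998). Without hypoxia replicate 3 the log2 fold change was 0.31. Sirt3, the main mitochondrial deacetylase, read 177.8, 116.9 and 141.8 in hypoxia and 178.0, 103.7 and 125.5 in normoxia on 1417892_a_at, with the same wide span in both groups (0.12, SE 0.24, adjusted p = 0.893).

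Sirt5, the mitochondrial desuccinylase, had lower signals in hypoxia on each of its 3 probe sets, none of which passed. On 1428915_at it read 97.9, 58.3 and 88.9 in hypoxia and 132.6, 113.6 and 104.2 in normoxia, and the groups did not overlap (log2 fold change -0.54, SE 0.23, 95% interval -1.05 to -0.03, adjusted p = 0.426; -0.32 without hypoxia replicate 2). On 1428916_s_at Sirt5 read 51.7, 40.3 and 53.7 in hypoxia and 66.7, 64.5 and 48.9 in normoxia, which overlap (-0.30, SE 0.23, adjusted p = 0.663; -0.17 without hypoxia replicate 2). The third Sirt5 probe set, 1432105_at, did not pass the filter and read 1.6, 0.5 and 2.0 in hypoxia and 16.3, 5.0 and 10.6 in normoxia, signals at which MAS5 values vary widely.

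Sirt6, a nuclear enzyme of chromatin and DNA repair that also restrains glycolytic genes, read 20.9, 24.2 and 24.6 in hypoxia and 30.6, 38.0 and 29.9 in normoxia on 1429631_at. The filter level is 14.1. Although the groups did not overlap, the difference did not pass (log2 fold change -0.49, SE 0.28, 95% interval -1.12 to 0.13, adjusted p = 0.566).

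**Figure D4:**
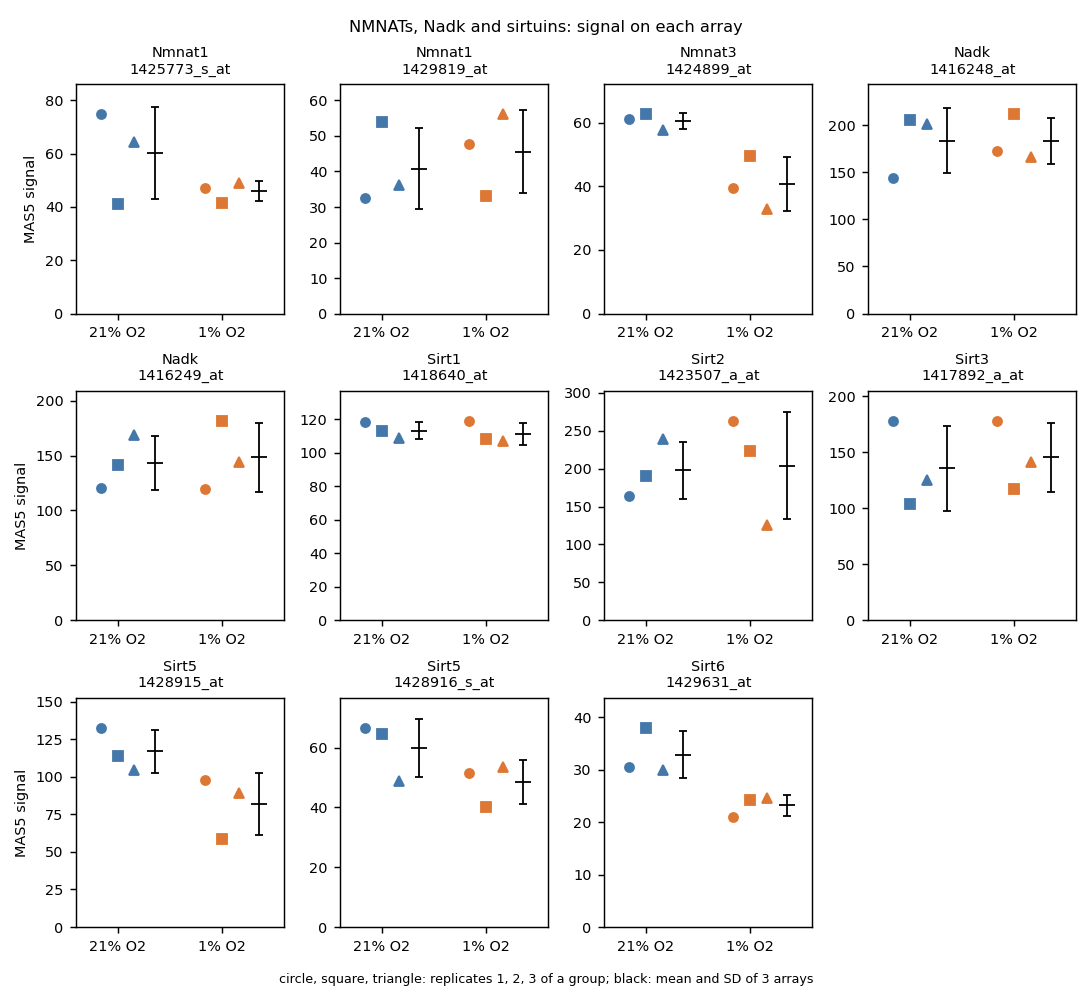
MAS5 signal (vertical axis, linear, from 0) of the 11 kept probe sets of Nmnat1, Nmnat3, Nadk and the 5 sirtuins on each array, blue for 21% and orange for 1% oxygen, with the mean and SD of 3 arrays in black. The groups are apart in Nmnat3, in Sirt5 1428915_at and in Sirt6, each lower in hypoxia, and overlap in the other 8.

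By distance between array profiles, Nadk2 1437287_at stood close to Nampt 1417190_at and the sirtuins did not. For each gene's probe set of highest mean signal, the 6 log2 values were taken relative to their normoxia mean and set against those of Nampt 1417190_at as a root mean square difference, smaller being closer. The 5 closest of 11331 genes were Ccdc141 (0.052 log2), G2e3 (0.066), Fam168a (0.066), Phf10 (0.074) and Ndufv3, a subunit of respiratory complex I (0.078). The median over all genes was 0.55. None of the 5 passed the test (adjusted p = 0.0781 to 0.231). Nadk2 ranked 11th of the 11331 genes, at 0.09. Sirt3, Sirt1, Nadk and Sirt2 ranked 3581st, 3737th, 4095th and 5220th, at 0.47 to 0.54, somewhat closer than the median gene. Nmnat1, Sirt6, Sirt5 and Nmnat3 ranked from 9241st to 10171st. The distances hold for Nampt 1417190_at, which did not pass, and the other Nampt probe sets were not compared in this way. Since each profile was set only to its normoxia mean, the distances depend largely on the fold changes on which the genes were selected. The distances describe these 6 arrays and carry no test.

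**Figure D5:**
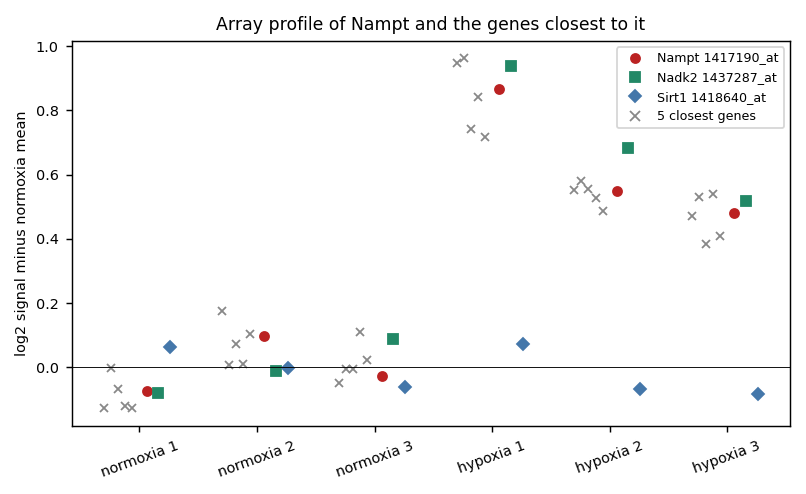
Log2 signal minus the mean of the 3 normoxia arrays, for each of the 6 arrays, of Nampt 1417190_at, Nadk2 1437287_at and Sirt1 1418640_at, with the 5 genes closest to Nampt as grey crosses. The crosses were picked for lying close to Nampt; Nadk2 lies near them, and Sirt1 stays near 0 on all arrays.

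The rest of NAD metabolism gave no call. In a list of 21 other genes of NAD synthesis and transport, 20 had a probe set of their own, 10 passed the filter and 0 passed the limma test, with 1 at an unadjusted p under 0.05. Their median log2 fold change was -0.08, beside -0.04 over all 11332 genes, of which 0.75% passed and 12.4% had an unadjusted p under 0.05. The brightest probe set of the list, that of Naxe, the epimerase that repairs hydrated NADH, stood at -0.21 log2 in hypoxia over normoxia (SE 0.12, adjusted p = 0.585). The 10 genes under the filter include all 7 listed enzymes of the route from tryptophan (Tdo2, Ido1, Ido2, Kmo, Kynu, Haao and Qprt), whose signals lay between 0.5 and 23.0. They also include Naprt, which salvages nicotinic acid, at 0.9 to 3.5, Nmnat2 at 8.7 to 20.5, and Nmrk2, the muscle kinase of nicotinamide riboside, at 4.1 to 20.3. Genes named here beyond the brightest of each list were chosen after their values were seen.

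Of 18 genes of NAD consumption and nicotinamide clearance, 13 passed the filter and 0 the limma test, with 5 at an unadjusted p under 0.05 (12.4% over all genes) and a median of -0.05. Tnks2, a tankyrase of the PARP family and the brightest of them, read 1380.4, 1398.8 and 1808.8 in hypoxia and 1083.7, 872.4 and 961.1 in normoxia (log2 fold change 0.65, SE 0.14, adjusted p = 0.0957). Its groups did not overlap. Of the 6 other sirtuins and regulators of Sirt1, all passed the filter and 0 the limma test, with 0 at an unadjusted p under 0.05. Usp22, the brightest, stood at 0.22 log2 (adjusted p = 0.632), and the remaining sirtuins Sirt4 and Sirt7 had -0.39 and 0.11 (adjusted p = 0.791 and 0.856). Of 15 known NAD sensors and sirtuin substrates, 13 passed the filter and 0 the limma test, with 3 at an unadjusted p under 0.05 (12.4% over all genes) and a median of -0.23. Acadl, a mitochondrial acyl-CoA dehydrogenase deacetylated by Sirt3 and the brightest, had -0.18 (SE 0.10, adjusted p = 0.565).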

How the data were processed

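Linear MAS5 intensity values, 1 per array for each of 45037 probe sets, were used as the authors deposited them; the submitters' processing notes name MAS5 without version or settings. In all, 10 zeros were replaced by the lowest positive signal (0.1) before log2. Probe sets with a mean log2 signal above the median (signal 14.1) were kept, 22518 in all. The 2 conditions were compared in limma 3.58.1 under R 4.3.3 (lmFit, eBayes with trend, two-sided, no covariates), adjusted by Benjamini-Hochberg over all kept probe sets, at 0.05. An exact permutation test of 3 against 3 cannot go below p = 0.1. The fit was tested on simulated data. No arrays were identical. The number of arrays limits the precision.

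Names came from a platform annotation (34945 probe sets with 1 symbol, 932 with several, 9160 with none); all 10 genes' IDs matched RefSeq. For lists a gene's brightest kept probe set stood for it. Named are every probe set of the 10 genes, in each list the genes called and the brightest not called, and the 5 genes closest to Nampt. The 10 genes and the lists were chosen with earlier results of these data known. Alternatives were quantile normalization, median centring, an offset of 2.9, no filter or one at the 75th percentile, eBayes without trend or robust, weighted arrays, a block for the replicate number, each array left out, and gene means.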

Additional observations from a re-analysis of the deposited data

How the results depend on the processing

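The count of probe sets called in the whole table, 137 as reported, was 18 without the variance trend and 437 with array weights; leaving out 1 array gave 39 to 200, with 39 without hypoxia replicate 1, 63 without hypoxia replicate 2 and 45 without normoxia replicate 3. Of the 10 genes' probe sets, 0 passed without the trend, 4 with array weights (all 3 of Nampt and Nadk2 1437287_at), and 0 to 1 with 1 array left out. With the replicate block 0 passed (Nampt 1455320_at adjusted p = 0.0642) and 105 in the whole table. The labels do not say whether the numbers pair the samples. Same-numbered arrays' deviations correlated at -0.08, 0.21 and -0.14, and those of differently numbered arrays between -0.30 and 0.32. With 3 arrays per group these values cannot settle whether samples were paired. Over 263 values of single probe sets under alternatives, 236 kept their sign and side of the threshold, 5 lost and 3 gained the call, and 19 changed sign. All sign changes were in probe sets that passed nowhere: with array weights Nadk at -0.070 and -0.12, Sirt1 at 0.028 and Sirt2 at 0.044; after quantile normalization Sirt1 at 0.026 and Sirt2 at 0.030; after median centring Sirt1 at 0.086 and Sirt2 at 0.11. With 1 array left out, Nmnat1 1429819_at ranged from -0.0045 to 0.38, Nadk 1416248_at from -0.15 to 0.10, Nadk 1416249_at from -0.11 to 0.19, Sirt1 from -0.074 to 0.0064, Sirt2 from -0.22 to 0.31 and Sirt3 from -0.060 to 0.33. The cause of these changes was not tested. Median centring moved the median of all kept probe sets from -0.04 to 0.07. In the other lists 0 genes passed in any of the 3 alternatives run (quantile normalization, no filter, every probe set apart).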

Other observations

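Several NAD users and regulators had more than 1 kept probe set, and their values are given here as chosen after they were seen; none passed. Parp3, a PARP enzyme of DNA break repair, had log2 fold changes from -0.76 to -0.48 on its 3 probe sets, all with hypoxia below normoxia on every array (adjusted p = 0.138 to 0.379). Ppargc1a, the coactivator of mitochondrial genes that Sirt1 deacetylates, had values from -0.53 to -0.30 on 5 probe sets, in 3 of which the groups did not overlap (adjusted p = 0.207 to 0.552). Over all kept probe sets, the groups were apart in 7.48% with hypoxia higher and in 9.06% with hypoxia lower. Foxo3, a forkhead factor deacetylated by sirtuins, had 0.34 and 0.70 on 2 probe sets (adjusted p = 0.665 and 0.211), with the groups apart only on the latter. Its relative Foxo1 had 0.08 to 0.40 on 3 probe sets, with the groups apart on 1 (adjusted p = 0.402 to 0.912). Foxo4 went the other way on its brightest probe set, at -0.42 without overlap (adjusted p = 0.479). Tnks2 had 0.19 to 0.75 on 3 probe sets (adjusted p = 0.0957 to 0.761) and the mono-ADP-ribosyltransferase Tiparp 0.09 to 0.44 on 3 (adjusted p = 0.322 to 0.934). Probe sets of 1 gene share their RNA and can share sequence, so they are not replicates.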
